A study of Mus musculus with 4 samples.

Results

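The 10 genes described here encode the transforming growth factor beta (TGF-beta) ligand Tgfb1, its receptors Tgfbr1, Tgfbr2 and Tgfbr3, the signal carriers Smad2, Smad3 and Smad4, and the inhibitors Smad7, Ski and Skil. They were chosen by name and found by gene identifier among 50600 genes in each of 4 count tables. The libraries were made from mouse C57BL/6NJ primary cells that the labels call regulatory T cells, CD4 T cells that restrain immune responses and depend on the transcription factor Foxp3. All 4 carry this 1 label, with 4 biosamples and 1 donor record, no sex collected and age unknown, so there is no second group. The labels call the assay total RNA-seq, cite a library protocol titled for poly(A) RNA and a CD4 T cell differentiation protocol, and name no allele or agent. The column name in each file adds the word activated and a mark for the starting time.

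TGF-beta is made as a latent complex and must be released before it acts. The free ligand binds the type II receptor, which recruits and phosphorylates the type I receptor. That kinase in turn phosphorylates Smad2 and Smad3, which enter the nucleus with Smad4. In T cells the pathway restrains proliferation and effector differentiation, and together with interleukin-2 it can induce Foxp3 in naive CD4 cells. Smad7 blocks the type I receptor, and Ski and Skil (SnoN) hold Smad target genes repressed.

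Total gene counts ran from 23000465 to 62090744 per library, with replicates 1 and 3 the shallower pair. The labelled lineage was checked against marker lists. Of 6 T cell markers 6 reached 1 TPM in every library (TPM, a length-corrected and depth-scaled transcript level, is used throughout), led by Trac at 3435 ± 137 TPM and Cd4 at 1067 ± 31.4 TPM. Of 8 regulatory T cell markers 7 did, but most of them were low. Tnfrsf18 stood at 107 ± 3.80 TPM, Ikzf4 at 9.22 ± 1.18 TPM, Foxp3 at 8.28 ± 0.867 TPM and Ctla4 at 7.77 ± 0.959 TPM. Il2ra followed at 6.22, 3.63, 9.13 and 3.11 TPM in replicates 1 to 4, higher in the shallower pair, and was the only marker of this list called variable between libraries in the edgeR fit described below (adjusted p = 1.186e-07). Its mean was 5.52 ± 2.76 TPM, with Ikzf2 at 1.34 ± 0.194 TPM, Nrp1 at 1.29 ± 0.173 TPM and Lrrc32 at 0.355 ± 0.131 TPM. Naive T cell genes were far above these, with Tcf7 at 2932 ± 117 TPM and Ccr7 at 1083 ± 37.7 TPM (SD, n = 4 throughout). Foxp3 was thus present at a low level beside high naive T cell genes.

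For both receptors of the signalling pair and for the ligand, the 250 bases before a RefSeq start site (GRCm38.p6, the mm10 build of the files) are shown, since these receptors have the highest and the lowest level among the 10 genes. Capitals mark 3 motifs on either strand, the GC box with the letters GGGCGG, the CCAAT box, named by its own letters, and the core of the Smad box with the letters CAGAC. No match overlapped another.
Tgfbr2, chr9:116175364-116175613, minus strand: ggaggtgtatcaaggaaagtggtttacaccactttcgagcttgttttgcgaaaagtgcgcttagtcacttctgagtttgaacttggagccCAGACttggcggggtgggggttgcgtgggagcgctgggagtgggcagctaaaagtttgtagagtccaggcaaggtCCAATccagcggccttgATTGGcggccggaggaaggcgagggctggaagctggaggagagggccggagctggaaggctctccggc
Tgfbr1, chr4:47352972-47353221, plus strand: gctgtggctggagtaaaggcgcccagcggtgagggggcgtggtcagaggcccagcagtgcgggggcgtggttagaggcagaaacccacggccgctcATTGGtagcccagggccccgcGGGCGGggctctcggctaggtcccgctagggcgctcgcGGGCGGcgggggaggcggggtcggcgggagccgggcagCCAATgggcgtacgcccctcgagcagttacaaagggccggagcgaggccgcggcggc
Tgfb1, chr7:25686752-25687001, plus strand: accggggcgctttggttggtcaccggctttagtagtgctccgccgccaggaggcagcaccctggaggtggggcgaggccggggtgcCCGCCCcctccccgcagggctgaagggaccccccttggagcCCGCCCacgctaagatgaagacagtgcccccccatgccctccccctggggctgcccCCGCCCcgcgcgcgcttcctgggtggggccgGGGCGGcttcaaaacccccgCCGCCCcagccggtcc
The Tgfbr2 window held no GC box, 2 CCAAT boxes and 1 Smad-box core, and G or C made up 58.4% of it. The Tgfbr1 window held 2 GC boxes and 2 CCAAT boxes, with 74.8% G or C. A second RefSeq entry for Tgfbr1, whose start site at 47386216 lies 32994 bases inside the gene, is not shown, and its window held neither of these boxes, 1 Smad-box core and 52.8% G or C. The Tgfb1 window held 5 GC boxes and neither of the other motifs, with 75.2% G or C. A GC box occurred in 32.7% of 32851 RefSeq windows of this length, a CCAAT box in 33.85% and a Smad-box core in 42.2%. Of the 10 genes 5 had an entry in the RefSeq promoter table, the others being Smad3 and Ski. A match describes letters only, and no binding was measured.

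All 10 genes were detected, defined as at least 1 TPM in all 4 libraries, against 70.5% of the 14116 protein-coding genes that had any count. Their mean levels ran from 23.7 TPM for Tgfbr1 to 290.3 TPM for Tgfbr2, and their median was 100.2 ± 2.69 TPM. The median over protein-coding genes detected in all libraries was 33.3 TPM. In these bulk samples, fewer cells expressing a gene and less of its RNA per cell cannot be told apart.

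**Figure D1:**
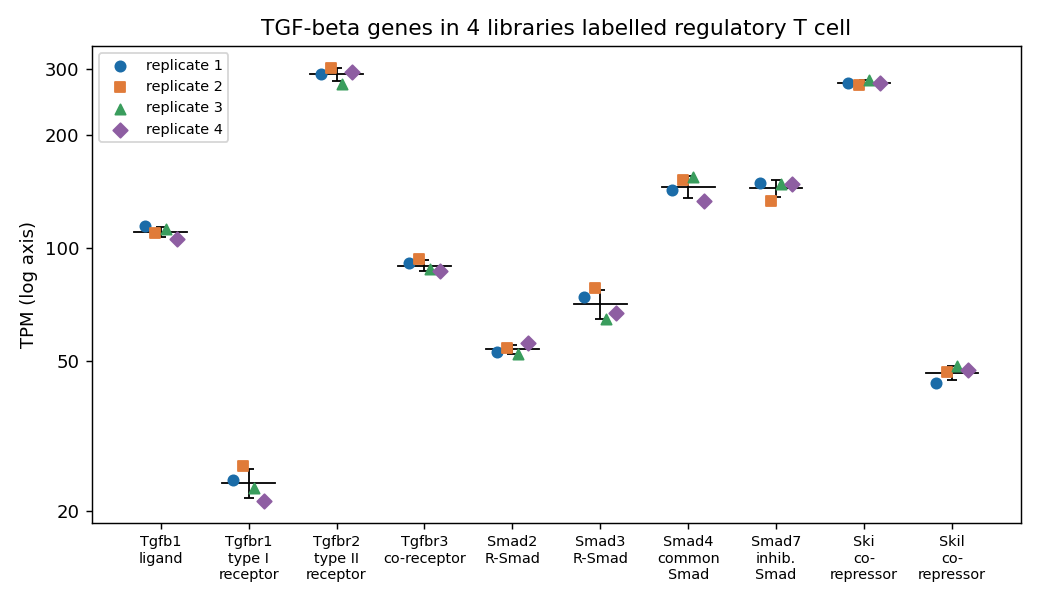
TPM (log axis) of the 10 genes in each of the 4 libraries labelled regulatory T cell, with the mean as a line and the SD as bars. Tgfbr2 (mean 290.3 TPM) and Ski (276 TPM) lie highest and Tgfbr1 (23.7 TPM) lowest, and the 4 libraries of each gene lie close together.

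Tgfb1, the ligand (ENSMUSG00000002603.15, chromosome 7, 25687002 to 25705077), had 114, 109.8, 112 and 106 TPM in replicates 1 to 4, on 3774 to 9705 counts. Its mean of 110.6 ± 3.51 TPM exceeded that of 88.8% of the protein-coding genes with a count. Neither of the other TGF-beta ligands reached 1 TPM in all 4 libraries, though Tgfb3 did in replicates 2 and 4, at 1.20 and 1.07 TPM. Tgfb3 averaged 0.858 ± 0.368 TPM and Tgfb2 0.107 ± 0.0418 TPM, so Tgfb1 made up 99.1% ± 0.321 of the TPM of the 3 ligand genes. Of the markers of platelets, which are rich in this ligand, Itga2b stood at 3.17 ± 0.559 TPM, Gp1bb had 1 count over the 4 libraries, and Pf4 and Ppbp had none. The part of such cells in the Tgfb1 level was not tested. Tgfb1 depends on the length used: the files list 5042 exon bases, while the longest transcript in GENCODE M21 has 2573. With the shorter of these lengths for every gene, Tgfb1 averaged 169 ± 5.45 TPM.

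Tgfbr2, the type II receptor that binds the ligand first (ENSMUSG00000032440.13, chromosome 9, 116084293 to 116175360), had 291, 302.5, 274 and 294 TPM. Its mean of 290.3 ± 11.9 TPM exceeded that of 96.6% of protein-coding genes. Tgfbr1, the type I kinase that carries the signal inward (ENSMUSG00000007613.15, chromosome 4, 47353222 to 47414931), had 24.2, 26.3, 23.0 and 21.2 TPM, the lowest of the 10 genes in every library. Its mean of 23.7 ± 2.13 TPM exceeded that of 57.7% of protein-coding genes. The co-receptor Tgfbr3, or betaglycan, which presents ligand to Tgfbr2 (ENSMUSG00000029287.14, chromosome 5, 107106570 to 107289629), had 91.1, 93.5, 88.0 and 87.0 TPM and a mean of 89.9 ± 2.95 TPM. The levels of the 3 receptors did not overlap in any library. In the files 4.54% of the exon bases of Tgfbr3 lie inside exons of Gm43422 on the same strand, and fragments over them were left out of the counts.

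Within libraries, Tgfbr2 exceeded Tgfbr1 by log2 ratios of 3.58, 3.52, 3.57 and 3.78 in replicates 1 to 4 (TPM plus 0.1), a mean of 3.61 ± 0.12 or 12.2-fold. Tgfbr2 exceeded Tgfbr3 by 1.69 ± 0.05, or 3.23-fold, and Tgfbr1 lay below Tgfbr3 with a log2 ratio of -1.92 ± 0.08. Tgfbr2 thus made up 71.9% ± 0.833 of the receptor TPM. The ratio of ligand to type II receptor, Tgfb1 to Tgfbr2, was -1.39 ± 0.09, and it was -0.44 ± 0.09 with the shorter gene lengths and -2.09 ± 0.09 on CPM, counts scaled for depth with no length correction. Each of the 8 ratios computed between the 10 genes kept its sign in 4 of 4 libraries. In a two-sided exact test by sign flips each gave p = 0.125, also after Benjamini-Hochberg adjustment over the 8. With 4 libraries no smaller p can arise, and so none of these tests can pass 0.05.

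**Figure D2:**
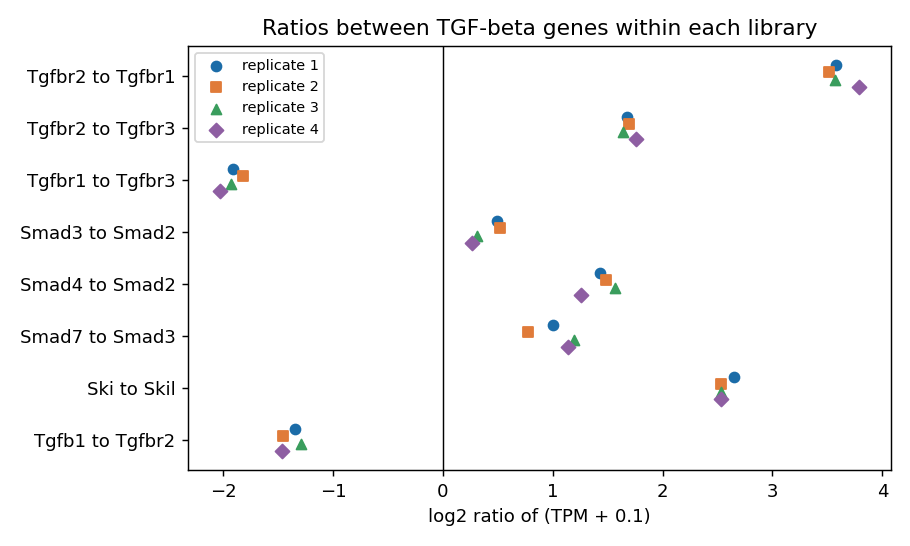
Log2 ratio of (TPM + 0.1) between pairs of the 10 genes, 1 point per library. Every pair keeps its sign in the 4 libraries, from about 3.61 for Tgfbr2 to Tgfbr1 down to -1.92 for Tgfbr1 to Tgfbr3.

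The receptor-activated Smads were both present at moderate levels. Smad3 (ENSMUSG00000032402.12, chromosome 9, 63646767 to 63757994) had 74.3, 78.2, 64.8 and 67.1 TPM, a mean of 71.1 ± 6.21 TPM. Smad2 (ENSMUSG00000024563.15, chromosome 18, 76241580 to 76305731) had 52.9, 54.4, 52.3 and 55.8 TPM, a mean of 53.8 ± 1.57 TPM. Smad3 was the higher of the pair in each library, and its replicates 1 and 2 lay above its replicates 3 and 4. The log2 ratio of Smad3 to Smad2 was 0.49, 0.52, 0.31 and 0.27, a mean of 0.40 ± 0.13, and 1.04 ± 0.13 on CPM. GENCODE M21 extends Smad2 by 5232 bases beyond the gene end in the files, and fragments over that extension are not in these counts.

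Smad4, the common partner that both share (ENSMUSG00000024515.13, chromosome 18, 73639009 to 73703780), had 143, 152, 155 and 134 TPM, a mean of 146 ± 9.75 TPM. It exceeded Smad2 by a log2 ratio of 1.43 ± 0.13. Set against Smad2 and Smad3 together, which summed to 125 ± 6.53 TPM, Smad4 stood at 1.17 ± 0.106 times their level, and above it in all 4 libraries. This order depends on the length correction. Mean CPM was 155 for Smad4, 54.7 for Smad2 and 113 for Smad3, so that Smad4 lay below their sum.

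The inhibitors included the most abundant gene of the set after Tgfbr2. Ski, a co-repressor that binds Smad complexes (ENSMUSG00000029050.15, chromosome 4, 155154075 to 155222592), had 275, 272, 281 and 275 TPM, a mean of 276 ± 3.70 TPM. Its relative Skil (ENSMUSG00000027660.16, chromosome 3, 31095058 to 31122577) had 43.8, 46.9, 48.5 and 47.5 TPM, a mean of 46.7 ± 2.03 TPM. Ski had the smallest spread of the 10 genes, with a coefficient of variation of 1.34%. The log2 ratio of Ski to Skil was 2.56 ± 0.06, or 5.90-fold, and 1.76 ± 0.06 on CPM. Together the co-repressors reached 322.5 ± 4.89 TPM, 2.59 ± 0.174 times the sum of Smad2 and Smad3.

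Smad7, the inhibitory Smad that TGF-beta itself induces (ENSMUSG00000025880.11, chromosome 18, 75367529 to 75395935), had 149, 134, 148 and 148 TPM, a mean of 145 ± 7.50 TPM. Replicate 2 was the low one. Smad7 exceeded Smad3 by log2 ratios of 1.01, 0.77, 1.19 and 1.14, a mean of 1.03 ± 0.19. It stood at 1.16 ± 0.110 times the sum of Smad2 and Smad3. Smad6, the inhibitory Smad of the bone morphogenetic protein (BMP) branch, had 1 count over the 4 libraries.

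In the order of mean TPM the genes ran Tgfbr2, Ski, Smad4, Smad7, Tgfb1, Tgfbr3, Smad3, Smad2, Skil and Tgfbr1. Tgfbr2 and Ski did not keep their order in every library, with Tgfbr2 the higher in 3 of 4, and their ranges overlapped. Smad4 and Smad7 did not either, with Smad4 the higher in 2 of 4. Each of the other 7 neighbouring pairs kept its order in 4 of 4 libraries without overlap of their ranges. The narrowest of these was Smad2 over Skil, by 3.78 to 9.11 TPM. With the shorter gene lengths Skil passed Smad2, at 52.5 ± 2.27 TPM and 42.0 ± 1.2 TPM, and Tgfb1 moved to the third place, while Tgfbr2, Ski, Tgfbr3, Smad3 and Tgfbr1 kept theirs.

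**Figure D3:**
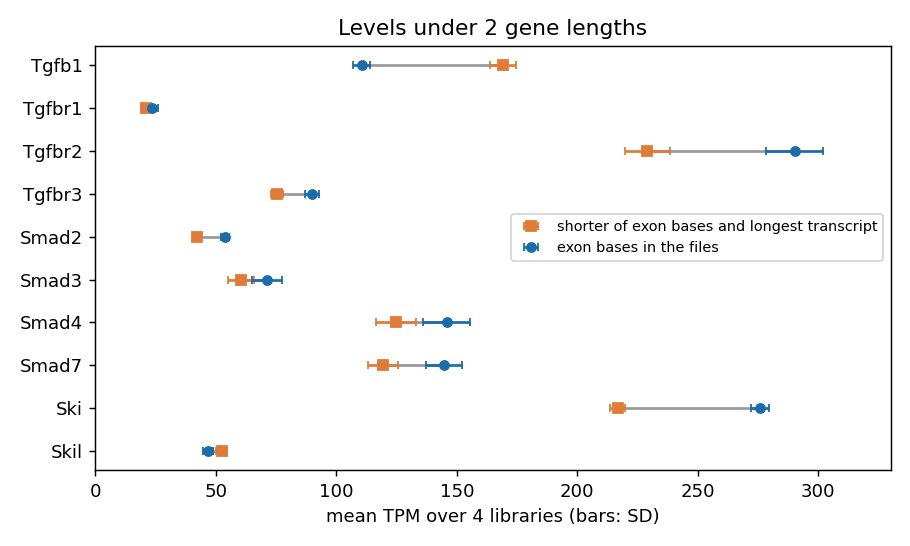
Mean TPM of the 10 genes with the shorter of the file's exon bases and the longest GENCODE M21 transcript (squares), beside the level from the exon bases in the files (circles), with SD bars over 4 libraries. Tgfb1 moves furthest upward, to 169 TPM, and Tgfbr1 stays lowest under both.

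The levels varied little between libraries. The coefficients of variation ran from 1.34% for Ski to 8.99% for Tgfbr1, with a median of 4.23%. Over the 5496 protein-coding genes with a mean TPM in the range of the 10 the median was 5.67%. Those genes were not matched to the 10 for level within that range. The ratio of the highest to the lowest library was 1.24 for Tgfbr1, 1.21 for Smad3 and at most 1.16 for the others. Counting error alone gives 3.15% for Tgfbr1 in its shallowest library, on 1005 counts. In an edgeR fit with an intercept only, each gene's deviance at the dispersion trend for its abundance was set against a chi-square distribution. The test asks whether a gene varied between libraries more than genes of its abundance, not whether it varied at all. By this test 142 of 12554 genes (1.13%) were called at an adjusted p of 0.05. None of the 10 genes was called, and none had an unadjusted p under 0.05. The adjusted edgeR p rounded to 1.00 for each of them. A p that misses the threshold does not show that levels were equal.

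**Figure D4:**
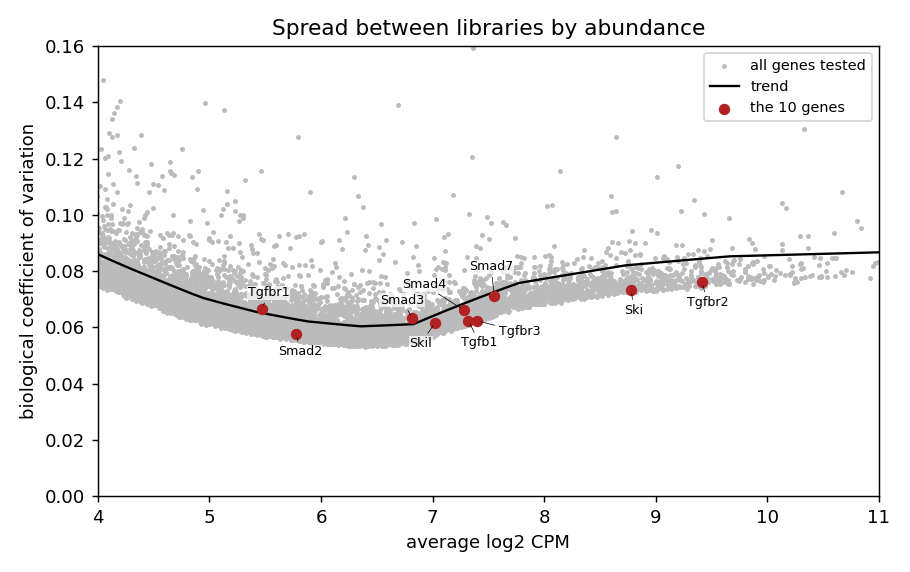
Biological coefficient of variation from edgeR against average log2 CPM for all genes tested (grey, those between 4 and 11 log2 CPM and below 0.16), with the trend line and the 10 genes in red. Only Tgfbr1 and Smad3 lie above the trend, at 0.0666 and 0.0632.

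Other cells were checked in the same libraries. The summed level of 6 B cell markers ran from 10.97 TPM in replicate 4 to 36.8 TPM in replicate 1, with Cd79b (9.31 ± 3.78 TPM) and Cd79a (8.61 ± 3.90 TPM) highest, and 5 of the 5 tested were called variable. None of the 10 genes was called, against 1.13% of all genes tested, a share too small for this to be informative in a set of 10. The 6 macrophage and monocyte markers summed to 14.5 to 16.8 TPM, led by Cd68 (11.7 ± 1.05 TPM) and Lyz2 (1.78 ± 0.919 TPM), while Adgre1 stood at 0.151 TPM. The 4 natural killer cell markers summed to 6.41 to 10.3 TPM, led by Eomes (4.00 ± 0.789 TPM) and Tyrobp (2.72 ± 0.949 TPM). The 4 CD8 markers summed to 37.6 to 42.8 TPM, almost all of it Cd8b1 (39.96 ± 2.55 TPM), with Cd8a at 0.794 ± 0.288 TPM. The 4 dendritic cell markers, led by Flt3 and Zbtb46, summed to at most 0.312 TPM. The 6 platelet and red cell markers summed to 3.54 to 6.19 TPM, led by Itga2b (3.17 ± 0.559 TPM) and Hbb-bs (1.37 ± 1.17 TPM). Of 6 stromal and endothelial markers, which summed to 143 to 173 TPM, Pecam1 stood at 155 ± 14.7 TPM and Cdh5 at 0.399 ± 0.280 TPM, with Col1a2, Pdgfrb and Kdr at 2 counts each over the 4 libraries. The part of any such cells in the levels of the 10 genes was not tested.

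Beyond the 10 genes, 87 further genes of the pathway were read from 7 lists by role. Of these, 59 were detected, beside 70.5% of the 14116 protein-coding genes that had any count. That share is also the background for the detection counts of each list below, which were not tested. For variation between libraries 65 of the 87 could be tested. None was called in the edgeR fit, against 1.13% of all genes tested, and 4 had an unadjusted p under 0.05 (657 of all genes).

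**Figure D5:**
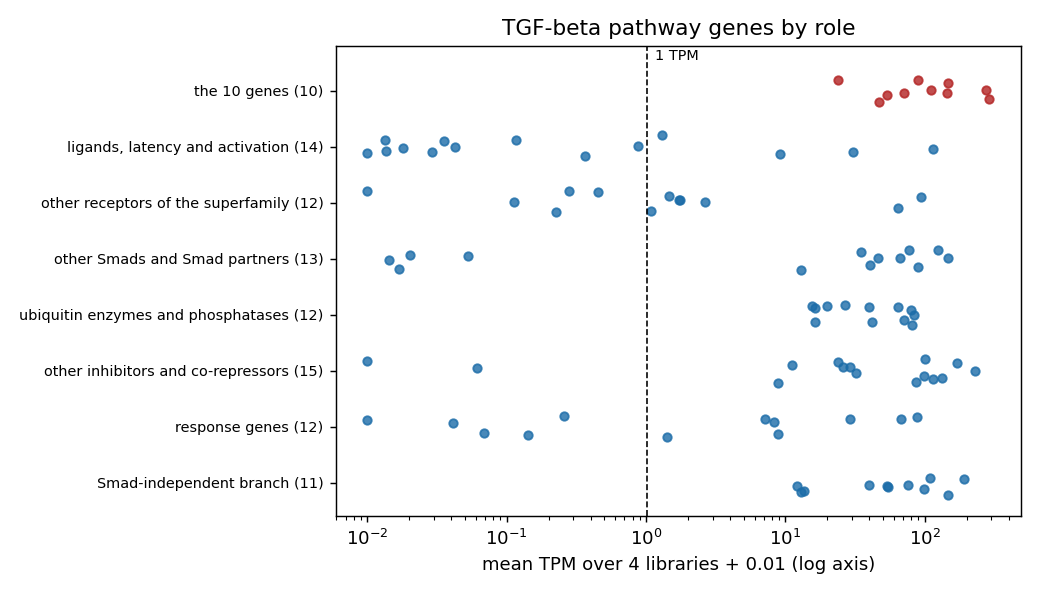
Mean TPM over 4 libraries (plus 0.01, log axis) of the 10 genes (top row, red) and of 7 lists of other pathway genes (blue), with the number of genes in each list. The ubiquitin enzyme and Smad-independent lists lie wholly right of the 1 TPM line, and most ligand and activation genes lie left of it.

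Genes that make, hold or release the ligand were mostly below detection, with 4 of 14 detected. Nrros, which anchors latent TGF-beta on the cell surface of microglia and other myeloid cells, was the highest at 117, 110.1, 109.5 and 120 TPM, a mean of 114 ± 5.07 TPM, close to the level of Tgfb1. Lrrc32 (GARP), the anchor known from activated regulatory T cells, had 0.323, 0.316, 0.543 and 0.238 TPM on 11 to 26 counts, so that Nrros was 201 to 503 times higher within libraries. Furin, the protease that cuts the precursor, averaged 30.6 ± 1.22 TPM, and the integrin chain Itgav 9.07 ± 0.436 TPM. Of its partner chains known to activate the ligand, Itgb8 had 17 counts over 4 libraries and Itgb6 none, a limit of 0.0632 TPM at 3 counts in the shallowest library. Of the family that stores latent ligand in the matrix, Ltbp1 had 1 count, Ltbp2 and Ltbp4 2 each and Ltbp3 4 over the 4 libraries. Lrrc32, Itgb8, Ltbp1, Ltbp3, Ltbp4 and the other ligands were named after their values were seen.

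Of 12 other receptors of the superfamily 6 were detected. Acvr1b, the activin type I receptor, had 93.1, 97.1, 93.7 and 91.7 TPM, a mean of 93.9 ± 2.29 TPM, or 3.98 ± 0.273 times the level of Tgfbr1. Acvrl1, a type I receptor best known from endothelium, averaged 64.6 ± 1.75 TPM. Of the endothelial markers, Pecam1 stood at 155 TPM, Cdh5 at 0.399 TPM and Kdr at 0.00569 TPM, and the part of such cells was not tested. The type II receptors beside Tgfbr2 were low. Acvr2a averaged 2.64 ± 0.301 TPM and Bmpr2 1.74 ± 0.167 TPM, so Tgfbr2 stood 111 ± 15.0 times above Acvr2a. Acvr1c averaged 0.102 ± 0.0471 TPM, and Bmpr1b had no count, a limit of 0.0754 TPM by the same 3 counts.

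Of 13 other Smads and Smad partners 9 were detected. The highest were Snw1, a splicing protein that binds Smads, at 146 ± 8.31 TPM, Hgs, an endosomal adaptor, at 125 ± 11.2 TPM, and Runx3, a transcription factor that cooperates with Smads, at 88.8 ± 4.43 TPM. Of the BMP-branch Smads, Smad5 averaged 46.1 ± 4.15 TPM and Smad1 13.0 ± 1.10 TPM, and Smad9 had 1 count. Zfyve9 (SARA), which presents Smad2 and Smad3 to the receptor, had 3 counts over the 4 libraries. Smad6, with 1 count, was the lowest member.

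Enzymes that turn the pathway's proteins over were all present, with 12 of 12 detected and a list median of 41.0 ± 0.891 TPM. Ppm1a, a phosphatase of Smad2 and Smad3, averaged 83.8 ± 5.42 TPM. Usp4, which removes ubiquitin from the type I receptor, averaged 81.2 ± 4.04 TPM, and Smurf2, a ubiquitin ligase that Smad7 brings to the receptor, 79.7 ± 6.08 TPM. The lowest were Wwp1 at 16.3 ± 1.27 TPM and Usp11 at 15.6 ± 0.812 TPM.

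Of 15 other inhibitors and co-repressors 13 were detected. Ctbp1 averaged 230.1 ± 7.16 TPM, Ncor1, a partner of Ski, 169 ± 4.95 TPM, and Fkbp1a, which holds the type I receptor inactive, 133 ± 4.72 TPM. Zeb2 averaged 0.0512 ± 0.0121 TPM and Mecom had no count (limit 0.0362 TPM). The feedback inhibitors Ldlrad4 and Pmepa1, which belong to this list and to the response genes, averaged 29.2 ± 1.90 TPM and 8.83 ± 1.52 TPM.

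Of 12 genes outside the 10 known to respond to TGF-beta in T or other cells 6 were detected, and the list's median was 3.83 ± 1.09 TPM. Smad7, which TGF-beta also induces, is counted among the 10 and not here. The list was not split by direction of response. Id3 averaged 88.3 ± 9.64 TPM and Id2 67.4 ± 4.18 TPM, both inhibitors of E-protein transcription factors that are also set by other signals. Itgae (CD103), an integrin chain that TGF-beta raises in T cells, averaged 0.248 ± 0.133 TPM on 8 to 14 counts per library. Ccn2, a matrix-associated response gene of many adherent cells, had no count (limit 0.157 TPM). Of the 7 genes tested, 3 had an unadjusted p under 0.05 for variation between libraries and none passed adjustment, while 5.23% of all genes tested had such a p. These were Id3, Bhlhe40 and Ccr8, each higher in replicates 1 and 3, the shallower pair, than in replicates 2 and 4, and the part of depth was not tested. The lowest was Bhlhe40, with an adjusted edgeR p of 0.0723 and 1.49, 0.970, 2.42 and 0.712 TPM.

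The Smad-independent branch was detected in full, 11 of 11 genes, at a list median of 57.2 ± 5.75 TPM. The kinase Mapk14 (p38 alpha) averaged 192 ± 5.95 TPM, the GTPase Rhoa 146 ± 6.35 TPM and Tab2, an adaptor of the kinase Map3k7 (TAK1), 108 ± 6.40 TPM. Pard6a, a polarity protein, averaged 12.8 ± 2.62 TPM and the kinase Mapk8 (JNK1) 12.1 ± 0.967 TPM. Tab1 had 61.9, 49.6, 57.2 and 48.0 TPM in replicates 1 to 4, with an unadjusted edgeR p of 0.0309 that did not pass adjustment. Like Id3, Bhlhe40 and Ccr8, it was higher in replicates 1 and 3 than in replicates 2 and 4.

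For 4 of the genes, the protein-coding genes closest in level over the 4 libraries were found by the root mean square difference of log2(TPM+0.1). Tgfb1 lay closest to Dusp7, a phosphatase of MAP kinases (111 ± 4.64 TPM, difference 0.0221), and to Brd9 (109.8 ± 2.71 TPM, 0.0301). Tgfbr2 lay closest to Cyfip2 (286 ± 7.24 TPM, 0.0297) and to Lef1, a partner of Tcf7 in naive T cells (295 ± 8.0 TPM, 0.0388). Smad3 lay closest to Phf11b (72.4 ± 5.93 TPM, 0.0355) and Entpd5 (69.4 ± 5.11 TPM, 0.0396), and Ski to Chmp4b (272.5 ± 3.55 TPM, 0.0200) and Prkar1a (281 ± 5.31 TPM, 0.0267). Over 4 libraries this measures closeness of level only.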

How the data were processed

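RNA was sequenced in 4 libraries that carry 1 label. The authors deposited unnormalized counts of fragments for each gene. Per the file headers, featureCounts 1.4.6-p4 counted read pairs with both ends aligned over GENCODE M13 exons with strand setting 2, from alignments named for STAR. Per the labels the build is mm10. No option to count multi-mapping fragments or those over several genes was set, so these are missing. At most 6.02% of the 50-base words of any of the 10 genes (Tgfbr3) also occur in transcripts of other genes.

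Symbols came from GENCODE M21 by identifier without version, for 50376 of 50600 genes. TPM was computed from each count and the exon bases in the file (Length, deposited by the authors as other information per gene). Variation between libraries was tested on all genes kept by filterByExpr with TMM in edgeR 4.0.16 (R 4.3.3), by each gene's deviance at the trended dispersion against a chi-square distribution on 3 degrees of freedom, with Benjamini-Hochberg adjustment. DESeq2 1.42.0 gave alternatives. Within-library ratios used TPM plus 0.1 and an exact sign-flip test. Python 3.11.15 computed the rest. Nothing says how far the biosamples were separate cultures or animals, so p-values reflect the spread among these 4 samples alone, and that spread may be technical. The ± values are SDs over the 4 libraries. The limits given for genes without counts cover counting error only.

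The members, lists and tests were chosen with earlier results of these data known. Named were all 10 genes, the 3 highest and 2 lowest genes by mean TPM of each pathway list, the 2 highest markers per cell type, all regulatory T cell markers, and the 2 genes nearest in level to Tgfb1, Tgfbr2, Smad3 and Ski. Others were named after their values were seen. A value for 1 gene that this rule names is not reported here.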

Additional observations from a re-analysis of the deposited data

Results flagged for a closer look

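In 9 of 49 named levels and ratios, 1 library stood far from the other 3, with a gap to the nearest, as a share of the range, above Dixon's 95% critical value for 4 samples. Chance flags about 1 in 20 where values are independent and normally spread. Levels and ratios here share genes, so that rate is only a rough guide. Among the 10 genes this held for Smad7, at 133.5 TPM in replicate 2 and 148 to 149 TPM in the others, and for the log2 ratio of Ski to Skil, at 2.65 in replicate 1 and 2.53 to 2.54 in the others. Of the other pathway genes, Snw1 stood at 158.4 TPM in replicate 2 (141 to 143 TPM in the others). Pard6a stood at 16.76 TPM in replicate 3 (11.4 to 11.7 TPM), and Acvr2a at 3.083 TPM in replicate 3 (2.44 to 2.55 TPM). Acvr1c stood at 0.03225 TPM in replicate 3 (0.117 to 0.133 TPM). The remaining 3 rest on 1 or 2 counts in a single library, Ltbp2 (0.01364 TPM, replicate 4), Smad6 (0.01741 TPM, replicate 4) and Smad9 (0.02791 TPM, replicate 3). With no count in the other libraries any count is flagged, so the rate above does not apply to these 3.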

How the results depend on the processing

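No paired analysis was possible because there is 1 group. None of the 10 genes was called variable under any of the 10 alternatives. The count over all genes, 142, was 88 without the filter on low counts, 352 with a common dispersion, 74 at an adjusted p of 0.01 and 64, 85, 84 and 60 without replicate 1, 2, 3 and 4, a range of 60 to 85 for fits with fewer samples. All 8 ratios kept their sign under the 7 alternatives run, but 3 moved by over 1.5 times. On CPM without length, the log2 ratio of Smad3 to Smad2 was 1.04, of Ski to Skil 1.76 and of Tgfb1 to Tgfbr2 -2.09, and the last was -0.44 with the shorter gene lengths. The median level of the 10 genes, 100.2 TPM, became 109 TPM with only protein-coding genes in the denominator, and 96.3 TPM with the shorter gene lengths, an alternative chosen after seeing the data. Among the 12 other receptors, 2 were detected at 5 TPM, against 6 at 1 TPM. The causes were not tested. Depth limits the genes with few counts, while each of the 10 genes had at least 1005 counts per library.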

Other observations

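Some marker lists split within themselves. Cd8b1 stood at 39.96 ± 2.55 TPM while Cd8a, its partner chain in the CD8 coreceptor, stood at 0.794 ± 0.288 TPM (SD, n = 4). Pecam1 stood at 155 ± 14.7 TPM while Cdh5 and Kdr, other endothelial genes, stood at 0.399 ± 0.280 and 0.00569 ± 0.00783 TPM. Itga2b stood at 3.17 ± 0.559 TPM while the platelet genes Pf4 and Ppbp had no count.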
